A study of Caenorhabditis elegans with 11 samples.

Results

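cel-mir-57 is 1 of the 250 microRNA (miRNA) hairpins in a table of small RNA read counts from aging worms. Its row was found by its name. The reads came from the small RNA of whole hermaphrodites of N2, the usual laboratory wild type of the nematode C. elegans, from which total RNA was prepared. The worms were 1, 5, 10 or 20 days old, with 3 libraries at each of the first 3 ages and 2 libraries at 20 days, 11 in all. All 4 groups shared strain, sex and tissue, and no mutation, transgene or treatment is named in the labels. The sources used here do not say from which stage the days were counted, how many animals went into a library, or whether same-age libraries are separate cultures, so the spread behind every p-value may be technical.

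A miRNA hairpin is cut into a short mature strand that pairs, mainly through the bases near its 5′ end (the seed), with target messenger RNAs and lowers their output. mir-57 is related in sequence to miR-10, a miRNA that lies within the Hox gene clusters of flies and vertebrates. In C. elegans embryos it is expressed in the posterior, and it forms a negative regulatory loop with nob-1, a Hox gene of the Abdominal-B class that specifies posterior cell fates and the shape of the tail. The present libraries come from whole worms, so they hold no information on where in the body mir-57 was made, and fewer cells that make it cannot be told apart from less of it per cell.

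In the Ensembl annotation of WBcel235, the mir-57 hairpin covers 99 bases of chromosome II, from 7850499 to 7850597 on the minus strand. 2 mature strands are annotated within it, 1 of 24 bases on the 5′ side (7850559 to 7850582) and 1 of 22 bases on the 3′ side (7850522 to 7850543). The count belongs to the whole hairpin, so the strands were not separated. The hairpin lies between protein-coding genes: acr-7, an acetylcholine receptor subunit gene on the same strand, lies 701 bases downstream, and T09A5.5 on the same strand lies 2260 bases upstream. A non-coding RNA gene on the other strand, T09A5.19, overlaps the hairpin by 5 bases at its 5′ end, and another on the same strand, T09A5.17, lies 72 bases upstream. mir-57 stood alone among the hairpins of the table: the nearest with a single annotated place were mir-85, 543 kb away on 1 side, and mir-236, 820 kb away on the other.

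mir-57 was an abundant hairpin at every age. It held 17640 to 40360 reads per library, out of totals of 955506 to 1800586, or 1.39% (95% Wilson interval 1.37% to 1.40%, replicate 2 at 10 days) to 2.79% (2.76% to 2.82%, replicate 1 at 1 day) of all counts. By raw count it ranked between 10 and 15 in every library, from 10 to 12 at 1 and 20 days and from 11 to 15 at 5 and 10 days. Levels below are CPM, which are counts brought to a common library size, here with edgeR's TMM factors. They are not corrected for differences between miRNAs in cloning or length, so an order of hairpins is an order of reads. The mean level over all libraries was 19767 CPM, which placed mir-57 at rank 11. The mean of mir-82, the most abundant hairpin, was 7.70 times as high. Just above mir-57 stood mir-37 of the embryonic mir-35 family (21235 CPM) and mir-51, a sequence relative (20317 CPM), and just below it stood mir-81 (18676 CPM) and mir-39 of the mir-35 family (17875 CPM). Between 1 and 20 days mir-57 had the smallest absolute change of the 145 tested hairpins with TMM scaling, so any neighbour moved more. mir-37 and mir-39 rose by 1.63 and 1.62 on the log2 scale and mir-81 fell by 1.01. Each had an adjusted p under 0.05 in edgeR's quasi-likelihood test and in every alternative run. In that test mir-51 fell by 0.51 (adjusted p = 7.67e-04), and its age means spanned 1.46-fold. The mean of mir-57 at its highest age was 1.45 times that at its lowest. Of the other 96 hairpins that averaged 50 CPM or more, 21 spanned a smaller fold over the ages, and among the other 19 of the 20 most abundant only mir-40 and mir-56 did, on TMM-scaled means.

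**Figure D1:**
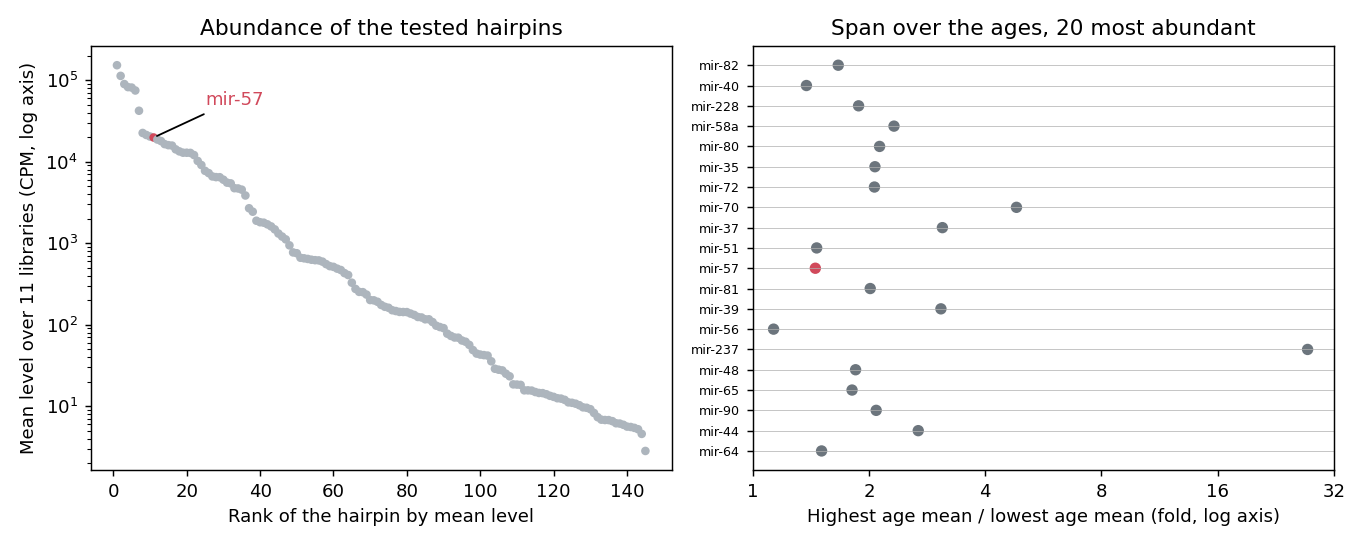
Left, mean level over 11 libraries (CPM, log axis) of the tested hairpins against their rank, with mir-57 in red at rank 11. Right, the fold between the highest and the lowest age mean (log axis) for the 20 most abundant hairpins in order of rank, where mir-57 lies at 1.45 and only mir-40 and mir-56 lie lower.

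The level of mir-57 was high at 1 day, lower at 5 and 10 days and high again at 20 days. At 1 day the 3 libraries held 24955, 22729 and 21521 CPM. At 5 days they held 14090, 18849 and 14700 CPM, all below every library of 1 day. At 10 days they held 19511, 14307 and 20666 CPM, again all below every library of 1 day, while they overlapped those of 5 days. The 2 libraries of 20 days held 21836 and 24269 CPM, within the range of 1 day and above every library of 5 and 10 days. The order of the means was therefore 1 day (23068 ± 1742 CPM, SD, n = 3), 20 days (23052 ± 1721 CPM, n = 2), 10 days (18161 ± 3388 CPM, n = 3) and 5 days (15880 ± 2589 CPM, n = 3). Neighbours in that order did not differ beyond the spread of their libraries between 1 and 20 days and between 10 and 5 days. Between 20 and 10 days the libraries did not overlap, but the difference did not pass in edgeR's quasi-likelihood test (adjusted p = 0.0877).

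The spread within an age was itself uneven. The coefficient of variation of mir-57 was 7.55% at 1 day and 7.46% at 20 days, but 16.3% at 5 days and 18.7% at 10 days, where the median over hairpins at 50 CPM or more was 11.4% and 9.58%. At 5 days replicate 2 stood above the other 2 libraries, and at 10 days replicate 2 stood below them. The lowest count, 17640, carries a counting error of 0.753%; the reads carry no molecular identifiers, so 2 reads may stem from 1 molecule, and this error and the intervals of shares cover counting error only.

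**Figure D2:**
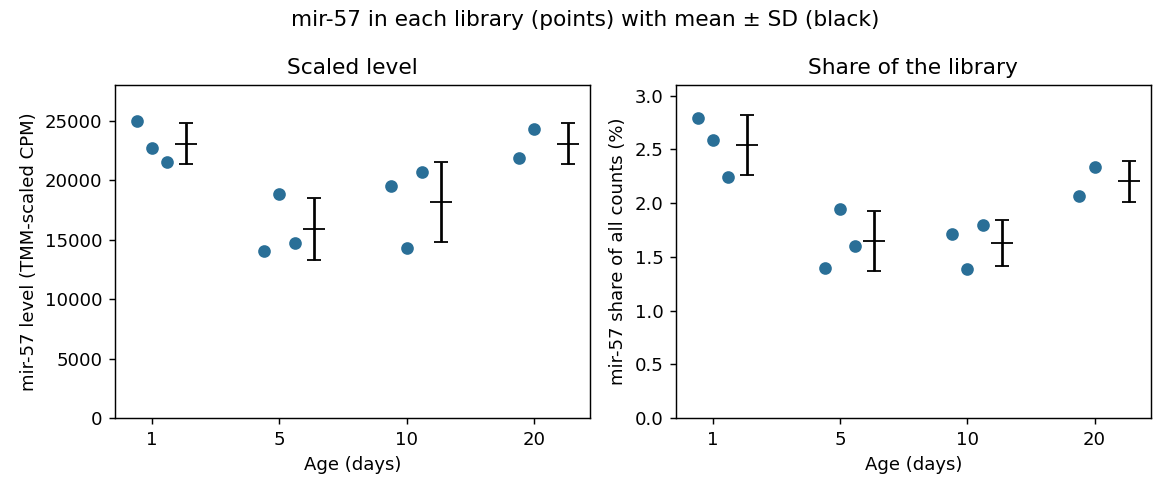
mir-57 in each library (points) at 4 ages, as TMM-scaled CPM on the left and as the percentage of all counts of the library on the right, with the mean ± SD of each age in black (n = 3, 3, 3 and 2). On both scales the 5- and 10-day libraries lie below every library of 1 and 20 days.

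Tested over the 4 ages together, mir-57 differed among them (edgeR quasi-likelihood F-test, adjusted p = 0.00665, Benjamini-Hochberg over 145 hairpins). This places it with 80.0% of the 145 tested hairpins, so a difference among the ages was the rule in this series. Without any scaling between libraries other than their totals, the share of all counts also differed among the ages (exact two-sided permutation test of the F statistic over 92400 arrangements, p = 0.0128). The mean share was 2.54% ± 0.278 at 1 day (SD, n = 3), 1.65% ± 0.278 at 5 days (n = 3), 1.63% ± 0.217 at 10 days (n = 3) and 2.21% ± 0.191 at 20 days (n = 2). On this scale the libraries of 5 and 10 days again lay below all others, and the level at 10 days was as low as that at 5 days.

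From 1 to 5 days mir-57 fell by 0.54 on the log2 scale, a 1.45-fold fall (SE 0.14, 95% interval -0.84 to -0.23, adjusted p = 0.00482). The same test called 47.6% of the hairpins, 26.2% lower and 21.4% higher, and the 2 ages did not overlap for 52.4% of them. In absolute size 60 of 145 hairpins changed more than mir-57. Its fall passed in all 20 alternatives, with adjusted p-values up to 0.0342.

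Against 1 day, mir-57 was also lower at 10 days, by a log2 change of -0.35 ± 0.14 (SE; 95% interval -0.65 to -0.04, adjusted p = 0.0452). At this comparison 64.1% of the hairpins were called, 26.9% of them as lower, and the ages did not overlap for 68.3%. The call stood near the threshold. It was lost with upper-quartile scaling (-0.26, adjusted p = 0.183), without 10-day replicate 2 (-0.20, adjusted p = 0.233) and without 5-day replicate 3 (-0.35, adjusted p = 0.0613), while the adjusted p over the 20 alternatives went down to 2.00e-04.

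From 5 to 20 days mir-57 rose by 0.54 on the log2 scale, a 1.45-fold rise (SE 0.16, 95% interval 0.20 to 0.87, adjusted p = 0.00771). Here 60.7% of hairpins were called, 34.5% as higher, and the groups did not overlap for 69.7%. This rise passed in all 20 alternatives, with adjusted p-values up to 0.0418. The comparisons of 5 against 1 and of 20 against 5 days share the 5-day libraries.

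The step from 10 to 20 days had a log2 change of 0.34 ± 0.16 (SE; 95% interval 0.01 to 0.68), which did not pass (adjusted p = 0.0877). Of all hairpins 44.8% were called, 20.0% as higher and 24.8% as lower, and 67.6% had no overlap. Both 20-day libraries lay above all 3 of 10 days. The outcome followed the scaling and the libraries in the fit: the change passed in 13 of 20 alternatives, with 0.50 by RLE size factors (adjusted p = 0.00653), 0.44 by total counts (adjusted p = 0.0273) and 0.15 by upper quartiles (adjusted p = 0.528). With 1 library left out it passed without 20-day replicate 1 (0.72) or 2 (0.49), 1-day replicate 1 (0.42) or 2 (0.61), 5-day replicate 1 or 2 (0.42 for each) and 10-day replicate 1 (0.65).

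For 2 pairs of ages the 95% interval of the change included 0. From 1 to 20 days the log2 change was -0.001 ± 0.16 (SE; 95% interval -0.34 to 0.34, adjusted p = 0.995), so that any difference between 0.790-fold and 1.26-fold lies within the interval. For this comparison 62.8% of the hairpins were called, 33.1% as higher and 29.7% as lower, and the ages did not overlap for 75.9%. With TMM scaling mir-57 had the smallest absolute change of the 145. Over TMM, RLE, upper-quartile and total-count scaling its change ran from -0.20 to 0.02. As a share of all counts mir-57 was 1.15-fold lower at 20 days than at 1 day in geometric mean. From 5 to 10 days the change was 0.19 ± 0.14 (95% interval -0.11 to 0.50, adjusted p = 0.306). Here 37.2% of hairpins were called, 29.0% as higher and 8.28% as lower, and the groups did not overlap for 45.5%. The change ran from -0.02 with total counts to 0.43 with upper quartiles, which alone among 20 alternatives made it pass (adjusted p = 0.0428). A straight line on log2 age had a slope of -0.03 ± 0.05 (SE) per doubling of age and did not pass (adjusted p = 0.618, with 48.3% of hairpins called); fitted without the 20-day group it was -0.16 (adjusted p = 0.00717).

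Because libraries of different ages can be scaled in several ways, the change of mir-57 was also set against the median change of all tested hairpins, which moves with the scaling by as much as mir-57 does. Over TMM, RLE, upper-quartile and total-count scaling that median ran from -0.02 to 0.41 for 10 against 5 days and from -0.27 to 0.06 for 20 against 10 days. Relative to it, mir-57 lay 0.51 to 0.54 lower at 5 than at 1 day, 0.48 to 0.51 lower at 10 than at 1 day, 0.51 to 0.52 higher at 20 than at 5 days and 0.42 to 0.44 higher at 20 than at 10 days, on the log2 scale. For 20 against 1 and 10 against 5 days it moved with the median hairpin, with differences of 0.02 to 0.03 and of 0 to 0.02. These differences are descriptions with no test of their own. A scaling shifts all hairpins nearly alike, so their closeness across the scalings follows from the subtraction.

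**Figure D3:**
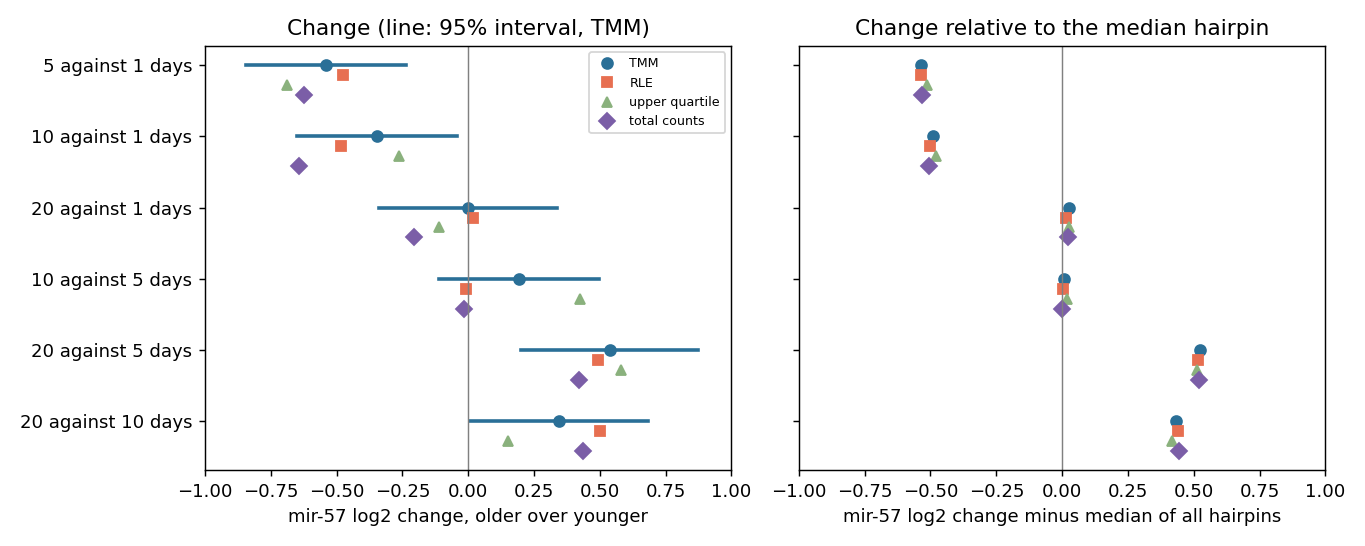
log2 change of mir-57 for the 6 pairs of ages under 4 scalings, with the 95% interval of the TMM fit as a line (left), and the same change minus the median change of all tested hairpins (right). On the left the scalings spread by up to 0.44 within a pair of ages. On the right they nearly coincide, because a scaling shifts all hairpins nearly alike and the subtraction removes that shift.

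Each label's description ends in L and a number, possibly a sequencing lane, although no label says so, and 4 pairs of libraries of different age shared that number. Within these pairs the log2 difference of mir-57 was -0.61 for replicate 1 at 5 days over replicate 3 at 1 day. It was 0.41 for replicate 1 at 10 days over replicate 3 at 5 days and 0.08 for replicate 1 at 20 days over replicate 3 at 10 days. For replicate 2 at 20 days over replicate 1 at 1 day it was -0.04. These are TMM-scaled values with 1 library on each side and no test. As shares of all counts the 4 differences, in the same order, were -0.68, 0.09, 0.20 and -0.25. No pair joined 5 and 20 days, or 1 and 10 days.

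The 6 hairpins of the mir-51 family, mir-51 to mir-56, are the relatives of mir-57 in the worm: their seed is that of vertebrate miR-100, and they act together in embryonic development and in the attachment of the pharynx. All 6 were tested. mir-51 was level from 1 to 5 days (0.04 ± 0.10 (SE) on the log2 scale) and then fell, from 23601 ± 196 CPM at 5 days to 16117 ± 255 CPM at 20 days (log2 change -0.55, adjusted p = 0.000535). mir-55 fell by 0.53 from 1 to 5 days (adjusted p = 0.00130), about as much as mir-57, but had a change of -0.01 ± 0.13 from 5 to 20 days. mir-52 and mir-54 had log2 changes of -0.28 and -0.30 from 1 to 5 days that did not pass, and from 5 to 20 days they rose by 1.08 and 1.43; mir-52 was lower at 5 days with upper-quartile scaling (-0.44) or without 5-day replicate 1 (-0.49). mir-53 rose from 317 ± 19.4 CPM at 1 day to 566 ± 136 at 5 days and 887 ± 80.7 at 20 days; its later step, 0.65 from 5 to 20 days, lost its call without 5-day replicate 3 (0.53) or 20-day replicate 2 (0.59) and with a minimum of 50 CPM (0.52). mir-56 lay between 15163 ± 1640 and 17172 ± 984 CPM at all ages. In counts, 1 of 6 rose and 1 fell from 1 to 5 days (2 fell with upper quartiles or without 5-day replicate 1, and 2 rose with RLE factors or DESeq2), with a median log2 change of -0.12 beside -0.002 over all hairpins, of which 21.4% rose and 26.2% fell. From 5 to 20 days 3 rose and 1 fell, with a median of 0.32 beside 0.02 over all hairpins, of which 34.5% rose and 26.2% fell.

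The difference between mir-57 and these relatives was tested as a ratio of counts within each library, which needs no scaling. mir-57 had 0.316 to 0.384 reads for each read of the 6 relatives together at 1 day, 0.223 to 0.322 at 5 days, 0.276 to 0.369 at 10 days and 0.350 to 0.358 at 20 days. The ratio was lowest at 5 days in geometric mean (0.259, against 0.357 at 1 day). The libraries of 5 days lay below both of 20 days, and every other pair of ages overlapped. An exact two-sided permutation test of the F statistic did not reach 0.05 (p = 0.0929, and 0.0929 after adjustment over the 3 ratios tested). Without 5-day replicate 2, the library with the high value, the adjusted p was 0.0397, and over the alternatives it ran from there to 0.246.

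Whole hermaphrodites can carry oocytes and embryos, which are rich in the mir-35 family (mir-35 to mir-42). That family's share of all counts was 17.4% to 21.4% at 1 day, 19.0% to 21.1% at 5 days, 24.1% to 25.7% at 10 days and 27.8% to 30.2% at 20 days. From 1 to 20 days all 8 members passed as higher with TMM scaling, beside 33.1% of all hairpins, and 6 did when scaled by upper quartiles or total counts or without 1-day replicate 1, while mir-57 had 23052 CPM at 20 days and 23068 at 1 day. The ratio of mir-57 to the family was 0.105 to 0.160 at 1 day and 0.0670 to 0.102 at 5 days. At 10 days it was 0.0539 to 0.0708, and at 20 days 0.0686 to 0.0842, so no library of a later age reached the lowest of 1 day. In geometric mean the ratio was 1.68-fold lower at 5 days, 2.09-fold lower at 10 days and 1.78-fold lower at 20 days than at 1 day. It differed among the ages (exact permutation test, p = 0.0201, adjusted p = 0.0301). The adjusted p rose to between 0.0505 and 0.0921 without 1-day replicate 1 or 2, 5-day replicate 3, or 10-day replicate 2 or 3. The content of oocytes and embryos was not measured at any age, so the share of this family is not a measure of it. The part of oocytes and embryos in the level of mir-57 was not tested.

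mir-60, a hairpin of the intestine, was highest at 5 days and lowest at 20 days. Its mean was 1754 ± 215 CPM at 1 day, 2878 ± 328 at 5 days, 1799 ± 228 at 10 days (n = 3 each) and 714 ± 143 at 20 days (n = 2). mir-57 had 12.1 to 14.3 reads per read of mir-60 at 1 day, 4.51 to 7.53 at 5 days, 8.47 to 12.6 at 10 days and 29.8 to 35.6 at 20 days. The ratio differed among the ages (exact permutation test, p = 1.30e-04, adjusted p = 3.90e-04, where the smallest p these groups allow is 6.49e-05) and did so in every alternative run. Within a library, then, mir-57 was 2.40-fold lower against mir-60 at 5 days than at 1 day and 2.47-fold higher at 20 days than at 1 day. The changes of both hairpins enter this ratio. From 1 to 5 days the log2 change with TMM scaling was 0.71 for mir-60 and -0.54 for mir-57. From 1 to 20 days it was -1.30 for mir-60 and -0.001 for mir-57. With this scaling the higher ratio at 20 days therefore lay in mir-60. Over the 4 scalings the change of mir-57 from 1 to 20 days ran from -0.20 to 0.02.

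**Figure D4:**
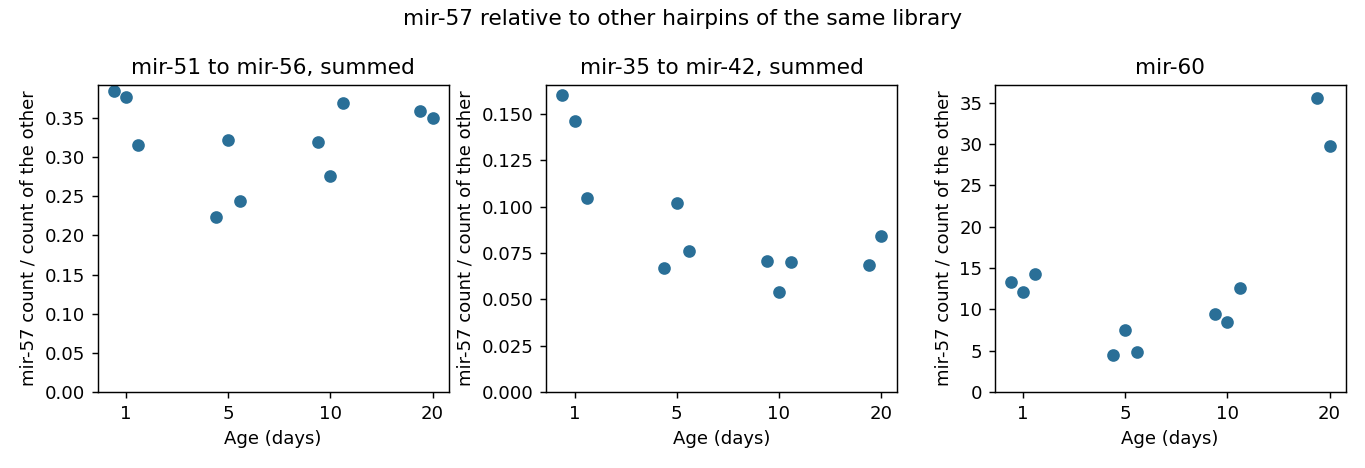
Reads of mir-57 divided by the summed reads of mir-51 to mir-56 (left), by those of mir-35 to mir-42 (middle) and by those of mir-60 (right), in each library by age. Against mir-60 the 2 libraries of 20 days (29.8 to 35.6) lie above all others, while against the mir-51 family every pair of ages overlaps except 5 and 20 days.

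Other hairpins with a known restricted tissue or developmental role were followed beside mir-57. The 8 tissue-restricted hairpins were mir-1, mir-60, mir-240, mir-786, lsy-6, mir-124, mir-791 and mir-228, and lsy-6 also stands in the second list below. The 2 that fell from 1 to 5 days, lsy-6 and mir-124, averaged only 14.5 and 10.3 CPM. Of the 8 tissue-restricted hairpins, 2 rose and 2 fell from 1 to 5 days (none fell with DESeq2, at a minimum of 50 CPM or without 5-day replicate 1, and 1 fell without 1-day replicate 3), and from 1 to 20 days 3 rose and 3 fell. Over all hairpins 21.4% rose and 26.2% fell at the first step and 33.1% rose and 29.7% fell over the whole span, so these counts lay near the background. Their median log2 changes were 0.09 and -0.37, beside -0.002 and -0.03 over all hairpins. Of 8 hairpins that act in developmental timing or cell fate (let-7, mir-48, mir-84, mir-241, lin-4, lsy-6, mir-61 and mir-235), 4 fell and 2 rose from 1 to 5 days, where 26.2% of all hairpins fell and 21.4% rose, with a median of -0.52 beside -0.002. With upper-quartile scaling none of these 8 rose and 5 fell, and 1 rose without 1-day replicate 1 or 3 or 5-day replicate 1. From 5 to 20 days 4 of the 8 fell and 2 rose, where 26.2% of all hairpins fell and 34.5% rose, with a median of -0.49 beside 0.02. let-7, a timer of the larva-to-adult switch, went from 3786 ± 411 CPM at 1 day to 1373 ± 74.3 at 5 days and 271 ± 16.5 at 20 days. mir-235, which keeps larval blast cells quiescent during starvation, went from 19566 ± 2088 CPM at 1 day to 6121 ± 1198 at 5 days and was at 4806 ± 395 at 20 days. mir-57 was likewise lower at 5 than at 1 day, but its mean at 20 days was 23052 CPM beside 23068 at 1 day. As a mean share of all counts it was 2.21% at 20 days beside 2.54% at 1 day.

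The hairpins whose levels went most like those of mir-57 over the 11 libraries were found by Pearson's r of log2 CPM among 96 others at 50 CPM or more, whose median r was 0.06. They were mir-1829c (r = 0.88, Spearman's rho 0.91), mir-793 (0.88 and 0.85), mir-90 (0.87 and 0.90), mir-50 (0.71 and 0.83) and mir-73 (0.70 and 0.74). Without the 2 libraries farthest from the median of mir-57, replicate 1 at 5 days and replicate 2 at 10 days, r was 0.78, 0.77, 0.83, 0.57 and 0.74. The libraries share their scaling factors and their age, and the libraries of mid age stand apart from the rest, so these values only rank likeness. The changes of hairpins picked by r follow in part from that choice, so their calls below are descriptions. mir-1829c fell by 0.49 from 1 to 5 days (adjusted p = 0.00654), and its change of 0.33 from 5 to 20 days did not pass (adjusted p = 0.0776). mir-793, a seed relative of let-7, was at 254 ± 6.97, 168 ± 23.5, 164 ± 16.9 and 223 ± 3.72 CPM from 1 to 20 days: it fell by 0.60 from 1 to 5 days (adjusted p = 7.65e-04) and rose by 0.41 from 5 to 20 days (adjusted p = 0.0195; 0.29 and not passing with total counts, and 0.28 with a minimum of 50 CPM). mir-90 was at 14727 ± 873, 9223 ± 2202, 12186 ± 1574 and 19259 ± 2413 CPM, a fall of 0.68 to 5 days and a rise of 1.06 from there to 20 days, both in every alternative. mir-50, which shares its seed with mir-90, also fell to 5 days, by 0.51, but at 20 days it was at 692 ± 3.89 CPM, near its 661 ± 21.1 at 5 days and below its 939 ± 79.6 at 1 day.

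At the other end of that ranking stood mir-75 (r = -0.87), mir-58a (-0.74), of the bantam-related mir-58 family, and mir-234 (-0.73). mir-75 was higher at mid age, going from 107 ± 1.45 CPM at 1 day to 227 ± 24.8 at 5 days and 199 ± 19.2 at 10 days, and was back at 112 ± 11.3 at 20 days. mir-58a went from 51218 ± 7825 CPM at 1 day to 93971 ± 12482 at 5 days and 118925 ± 4970 at 10 days, and was at 55096 ± 8855 at 20 days.

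**Figure D5:**
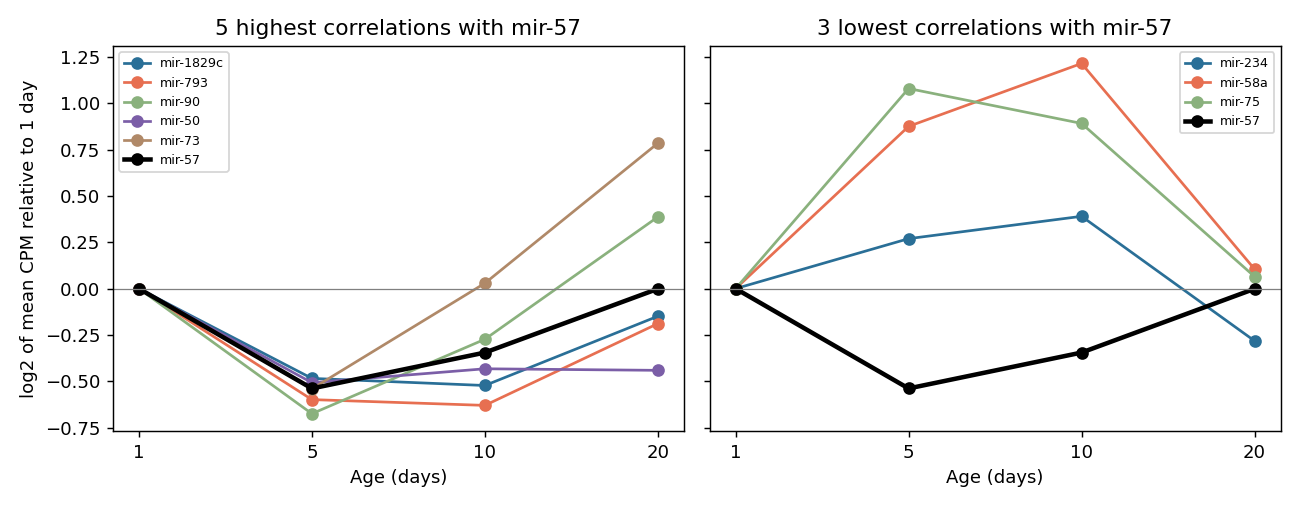
log2 of the mean CPM at each age relative to 1 day for mir-57 (black) and the 5 hairpins with the highest (left) and the 3 with the lowest (right) Pearson correlation with it over 11 libraries. mir-57 lies at -0.54 at 5 days and near 0 at 20 days, and mir-75 and mir-58a lie above 0 at 5 and 10 days.

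The nearest hairpins on chromosome II were compared with mir-57 at the same steps. mir-85, at 543 kb, had log2 changes of 0.07 from 1 to 5 days (adjusted p = 0.685) and 0.18 from 5 to 20 days (adjusted p = 0.308; 0.45 and passing without 20-day replicate 1). mir-236, the worm relative of miR-8 and miR-200, had a change of 0.09 from 1 to 5 days (adjusted p = 0.586) and fell by 0.40 from 5 to 20 days (adjusted p = 0.0216), where mir-57 rose. The fall of mir-236 lost its call with upper quartiles (-0.35) and without 1-day replicate 2 (-0.31) or 20-day replicate 1 (-0.20).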

How the data were processed

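Per the labels' protocols, libraries were prepared with a TruSeq smallRNA kit. The deposited values are raw read counts per hairpin, which the authors did not normalize. The submitters' processing notes name BWA 0.7.12-r1039, SAMtools 1.3.1-9, Trimmomatic 0.36 and CASAVA 1.8.4. No source used here gives the reference, the build or the rule for reads that match several hairpins, so reads shared by related hairpins are uncertain, and so are levels within the mir-51 and mir-35 families. Places come from Ensembl release 115 (WBcel235), by name.

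Samples were grouped by labelled age. In R 4.3.3, edgeR 4.0.16 kept 145 of 250 hairpins (filterByExpr, minimum count 10, minimum total 15), scaled by TMM and fitted age as a factor over all 11 libraries. Quasi-likelihood F-tests were adjusted by Benjamini-Hochberg over 145 hairpins, with a threshold of 0.05; the prior count was 0.125, or 2 for log2 CPM. Alternatives used other scalings and filters, DESeq2 1.42.0 and robust fitting. Others used the possible lane as a random block in limma 3.58.1, fits to only the 2 ages compared, and leaving out each library. The edgeR test was run on counts simulated for 20 against 1 days. It recovered 18 of 20 hairpins changed 2-fold and 20 of 20 changed 4-fold, and called 1 of 101 unchanged ones. Those changes were larger than any of mir-57 and touched fewer hairpins than were called in the data. The power for changes of the size seen in mir-57 was therefore not checked. Named hairpins were the list members, neighbours in abundance and place, and the 5 most and 3 least correlated at 50 CPM or more. mir-57, the lists and the tests were chosen with earlier results of these data known.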

Additional observations from a re-analysis of the deposited data

How the results depend on the processing

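The difference of mir-57 among the 4 ages, its fall from 1 to 5 days, its rise from 5 to 20 days, the difference of its share of counts and that of its ratio to mir-60 passed in every alternative run. That ratio also holds the changes of mir-60 itself. The log2 change for 10 against 1 days no longer passed with upper-quartile factors (-0.26) and ranged from -0.56 to -0.20 with 1 library left out. For 20 against 10 days it passed with RLE factors (0.50), total counts (0.44), no filter (0.53), a mean of at least 50 CPM (0.48), DESeq2 (0.50) and the 2 ages alone (0.38), and ranged from 0.20 to 0.72 with 1 library left out. For 10 against 5 days it passed with upper-quartile factors (0.43), had the other sign, near 0, with RLE factors (-0.0074), total counts (-0.016), 50 CPM (-0.073), DESeq2 (-0.0074) and the 2 ages alone (-0.028), and ranged from -0.027 to 0.34 with 1 library left out. For 20 against 1 days it ran from -0.20 to 0.017 over the 4 scalings. It was positive with RLE factors (0.017), no filter (0.027), DESeq2 (0.017) and the 2 ages alone (0.049), and ranged from -0.049 to 0.21 with 1 library left out, never passing. The slope per doubling of age was -0.16 and passed without the 20-day group, and was 0.0047 per day, not passing, without a log scale. With 1 library left out, the largest log2 difference between 2 age means ranged from 0.35 to 0.62 for the ratio to the mir-51 family and from 0.94 to 1.25 for the ratio to the mir-35 family. The cause of these differences was not tested. The count of called hairpins stayed within 1.5 times in every alternative. Where a 20-day library was left out, the lone one was assumed to vary like the other groups. No paired analysis was possible because the labels give no replicate numbers that the ages share; with the possible lane as a random block no call of mir-57 changed. The lowest count of mir-57 was 17640, a counting error of 0.753%, below its spread within every age.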
